A study of Homo sapiens with 2 samples.

Results

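Some strong MSI2 peaks were listed in 1 of the 2 CLIP-seq libraries of NB4 cells and had no peak of the other library over them. A strong peak is one whose tally, the whole number that ends its name in the deposited list, was 10 or more. No header or label explains the tally, which is treated here as a stand-in for read number. The members were selected on measured values: their tally in one list and the lack of any same-strand peak of the other list sharing 1 nt or more with them. Replicate 1 held 439 such peaks among 3411 strong peaks and 25920 peaks in all. Replicate 2 held 255 among 2405 strong peaks and 25243 peaks in all. Together they numbered 694 of 5816 strong peaks, or 11.9%. The strong peaks that were overlapped in the other list, 2972 in replicate 1 and 2150 in replicate 2, are called recurring strong peaks here.

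Musashi-2 (MSI2) is a cytoplasmic RNA-binding protein that recognises short UAG-containing motifs, often near the 3' ends of messenger RNAs, and regulates their translation and stability. It is known for its role in blood stem cells and in myeloid leukaemia. In CLIP-seq, ultraviolet light joins the protein to the RNA it touches, an antibody pulls the protein down, and the attached RNA fragments are sequenced and piled up into peaks.

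NB4 is an established acute promyelocytic leukaemia line. Both libraries belonged to a single group with no treatment named in the labels, and both were made from the same stated number of cells with the same anti-MSI2 antibody and an ultraviolet dose of 400 mJ per square centimetre. The replicates are numbered, but nothing says whether their cultures were separate, and any difference between them may be technical. No control library was analysed here. The deposited lists give Ensembl gene IDs without names, so genes are given by ID or by the hg19 positions of their peaks, and the labelled cell type could not be checked against its marker genes. With 1 library per list and peaks that share genes and fragments, peaks are not replicates: no test was made, and the 95% Wilson intervals cover counting error only.

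Overlap status and tally chose these peaks, so the shares in this paragraph are a description. Among strong peaks, 12.9% had no counterpart in replicate 1 and 10.6% in replicate 2, against 64.3% and 62.7% of the peaks of any tally. Many members sat near the threshold, where strong peaks as a whole were also common. A tally of 10 or 11 belonged to 211 of the 439 in replicate 1 (48.1%) and to 144 of the 255 in replicate 2 (56.5%). In replicate 2, 21 of the 144 were entries of 1 site on chromosome 5, listed under 21 gene IDs. Of all 3411 strong peaks of replicate 1, 572 had a tally of 10 and 515 a tally of 11. Of the 2405 of replicate 2, 479 and 354 did. The median tally was 12 (interquartile range 10 to 14) in replicate 1 and 11 (10 to 13) in replicate 2, and that of the recurring strong peaks was 14 (11 to 19) and 13 (11 to 19). The members held 9.96% and 8.27% of the summed tally of all strong peaks.

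The share without a counterpart was lower at higher tallies, though not at every step. At a tally of 10, just inside the rule, it was 20.3% (17.2% to 23.8%, 116 of 572) in replicate 1 and 20% (16.7% to 23.9%, 96 of 479) in replicate 2. Of those 96, 21 were entries of the 1 chromosome 5 site, which the interval treats as separate peaks. With each interval counted 1 time, replicate 2 had 75 members and 357 recurring peaks at this tally. Replicate 1 had 116 and 428, so the near equality of the 2 shares rests partly on that site. At a tally of 9, just outside it, 233 of 752 (31.0%) and 125 of 539 (23.2%) peaks had no counterpart. At a tally of 14 the lists differed more, with 16.4% (12.5% to 21.1%) in replicate 1 and 7.69% (4.55% to 12.7%) in replicate 2. At 15 to 19 the shares were 7.44% and 4.13%, and at 20 to 29 they were 3.84% and 4.48%. Of the peaks with a tally of 30 or more, 2 of 248 in replicate 1 and 3 of 146 in replicate 2 had none. Above the strongest member, at a tally of 31 in replicate 1 and 35 in replicate 2, lay 183 and 91 strong peaks, and by the rule each of them was overlapped. The other edge of the rule was narrow too. Of the recurring strong peaks, 13 in replicate 1 and 6 in replicate 2 were overlapped by 5 nt or less, against a median overlap of 53 and 57 nt, while 4 and 3 members lay end to end with a peak of the other list.

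**Figure D1:**
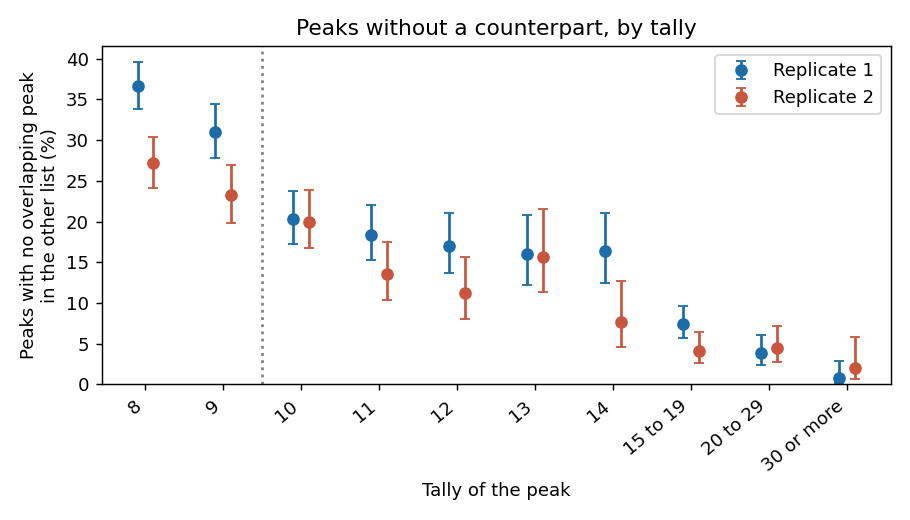
Share of peaks with no overlapping peak in the other list (%, vertical axis) by the tally of the peak (horizontal axis). Points are the peaks of replicate 1 (blue) and replicate 2 (red), bars are 95% Wilson intervals, and the dotted line marks the threshold of 10. The share is 20.3% and 20% at a tally of 10 and 0.806% and 2.05% at 30 or more. Every listed entry is counted, and 21 of the 96 replicate 2 members at a tally of 10 are 1 site on chromosome 5.

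The strongest members are given first, with the nearest peak of the other list. In replicate 1 the highest tally, 31, belonged to a minus-strand peak at chr13:46700463-46700557. The replicate 2 list had its nearest peak 151 nt away, at chr13:46700260-46700311, with a tally of 15. The strongest recurring peak of that chromosome in replicate 1, at chr13:46700689-46700853 with a tally of 72, lay on the same strand in the same kilobase, and its replicate 2 counterpart had a tally of 16. Next came a plus-strand peak of 98 nt at chr1:32508570-32508667 with a tally of 30, 126 nt from a replicate 2 peak with a tally of 11. A plus-strand peak at chr5:314904-315001, listed under 2 gene IDs, had a tally of 29. It was 24 nt from the replicate 2 peak at chr5:314763-314879, whose tally of 43 is the highest among the recurring strong peaks of that chromosome in replicate 2. Its own replicate 1 counterpart, at chr5:314761-314880, had a tally of 38. The first 10 entries by tally in replicate 1 thus came from 9 intervals with tallies of 24 or more, and for all 10 the nearest replicate 2 peak was itself overlapped by another replicate 1 peak. That nearest peak was within 500 nt for 9 of the 10.

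Of these 10 entries, 3 lay on the plus strand of the mitochondrial chromosome. The peak at positions 11254 to 11303 had a tally of 28 and the nearest replicate 2 peak, 72 nt away, had 19. The peak at 3452 to 3516, with a tally of 27, was separated by 4 nt from a replicate 2 peak at 3521 to 3586 with a tally of 23. The peak at 697 to 722, also with a tally of 27, was 62 nt from a replicate 2 peak with a tally of 22. In each case the other library had a strong peak of lower tally beside the position, not on it. The remaining entries were a 29 nt peak at chr10:70864385-70864413 (tally 26, 446 nt from a replicate 2 peak with a tally of 32), a 75 nt peak at chr3:195778085-195778159 (tally 25, 554 nt from a peak with a tally of 11), and a 104 nt peak at chr11:61919708-61919811. That last peak had a tally of 24, and a replicate 2 peak with a tally of 8 lay 116 nt away.

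In replicate 2 the strongest member was a mitochondrial peak of only 17 nt, at positions 2799 to 2815, with a tally of 35. The nearest replicate 1 peak was 167 nt away and had a tally of 50. Another mitochondrial peak of 22 nt, at 1986 to 2007, had a tally of 31 and lay 87 nt from a replicate 1 peak with a tally of 63. Also among the first 10 were 3 minus-strand peaks of 1 gene ID on chromosome 17, at 56356956 to 56357002 (tally 31), 56355208 to 56355251 (tally 27) and 56350911 to 56350947 (tally 24), which are described with their gene below. A plus-strand peak at chrX:64959628-64959683 had a tally of 27, 135 nt from a replicate 1 peak with a tally of 40. A 111 nt peak at chr19:3976493-3976603 had a tally of 26, and a replicate 1 peak with a tally of 8 lay 149 nt away. A minus-strand peak at chr1:91853089-91853135, with a tally of 25, was separated by 2 nt from a replicate 1 peak of 21 nt with a tally of 9. The strongest recurring site of both lists on that chromosome lies near it on the same strand, at chr1:91852792-91852932 in replicate 2, with tallies of 106 in replicate 2 and 90 in replicate 1. The remaining entries were chr5:179156408-179156513 (tally 24, 71 nt from a peak with a tally of 11) and chr12:124498747-124498814 (tally 23, 336 nt from a peak with a tally of 7). Of the first 10 in replicate 2, 9 had a nearest replicate 1 peak that was overlapped by another replicate 2 peak, and 8 had it within 500 nt. Over all members with a tally of 20 or more, 16 of 19 in each list (84.2%, 62.4% to 94.5%) had a nearest peak of this kind. Among recurring strong peaks with such tallies, the nearest non-overlapping peak was of this kind for 473 of 672 (70.4%) in replicate 1 and 347 of 484 (71.7%) in replicate 2, inside the members' interval.

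Most members were close to a peak of the other list. The median gap was 167 nt (interquartile range 60.5 to 635) in replicate 1 and 188 nt (73 to 510) in replicate 2. In replicate 1, 4 members touched a peak of the other list end to end, 17 were 1 to 9 nt away, 72 were 10 to 49 nt away, 69 were 50 to 99 nt away and 150 were from 100 to just under 500 nt away. In replicate 2 the same classes held 3, 6, 38, 27 and 116 members. A gap of 10000 nt or more was left for 40 members (9.11%, 6.76% to 12.2%) in replicate 1 and 17 (6.67%, 4.20% to 10.4%) in replicate 2. The nearest non-overlapping peak lay that far from 7.50% and 8.19% of recurring strong peaks. Weighted to the tallies of the members, these values were 8.58% and 8.10%. All lie inside the members' intervals. No member of either list was overlapped by a peak of the other list on the opposite strand. No such value is given for recurring strong peaks, so this is not a contrast with them. In each list, 6 members had a member of the other list within 100 nt. Any peak of the other list lay that close to 164 members in replicate 1 and 74 in replicate 2. Members were only 439 of the 25920 peaks of replicate 1 and 255 of the 25243 of replicate 2, which limits such pairs.

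The rule fixes that no member is overlapped, so the members were compared with recurring strong peaks by the nearest peak of the other list that does not overlap. At gaps of up to 100 and 500 nt the unweighted shares of members and recurring strong peaks lay close together in replicate 1. In replicate 2 a smaller share of members had such a peak within 100 nt. In replicate 1, 37.4% of members (33.0% to 42%) and 38.7% of recurring strong peaks (36.9% to 40.4%) had such a peak within 100 nt, and 71.1% and 70.5% had it within 500 nt. In replicate 2, 29% of members (23.8% to 34.9%) and 39.1% of recurring strong peaks (37.1% to 41.2%) had it within 100 nt, and 74.5% and 71.7% within 500 nt. Weighted to the tallies of the members, the recurring values within 100 nt were 34.4% and 36.0%. Within 500 nt they were 66.6% and 69.8%, with members' intervals of 66.7% to 75.1% and 68.8% to 79.5%. Within 10 nt the members' shares were 5.01% (3.33% to 7.47%) in replicate 1 and 3.92% (2.14% to 7.07%) in replicate 2. The weighted recurring values there were 2.19% and 2.86%. When each interval counted 1 time, the replicate 2 values were 31.0% (25.3% to 37.3%) for members and 38.2% for recurring strong peaks, or 36.3% at the members' tallies, which lies inside the members' interval. The median tally of the nearest non-overlapping peak was 6 for members and for recurring strong peaks in replicate 1, and 7 and 8 in replicate 2. That nearest peak had a counterpart of its own for 58.1% of members and 60.5% of recurring strong peaks in replicate 1, and for 68.2% and 62.0% in replicate 2. The summed tally of the non-overlapping peaks of the other list within 500 nt was at least that of the peak itself for 45.3% of members and 34.0% of recurring strong peaks in replicate 1, and for 46.3% and 44.1% in replicate 2. It was zero for 127 members (28.9%) and 877 recurring strong peaks (29.5%) in replicate 1, and for 65 (25.5%) and 608 (28.3%) in replicate 2. The share with a sum of at least the peak's own tally depends on that tally, which was lower in members. Its median was 12 against 14 in replicate 1 and 11 against 13 in replicate 2. This share was not weighted to the members' tallies, so it does not compare peaks of equal tally.

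**Figure D2:**
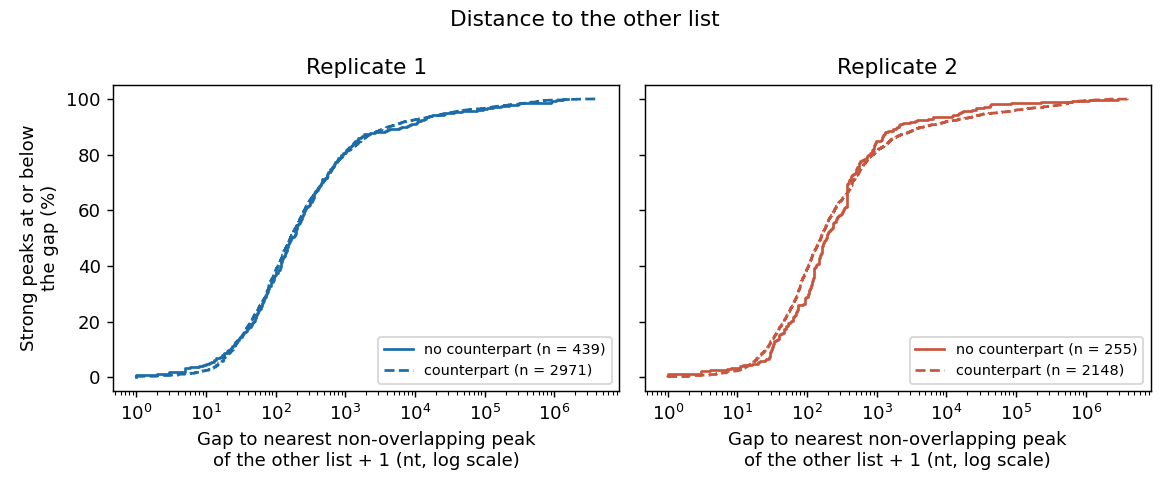
Cumulative share of strong peaks (%, vertical axis) by the gap to the nearest non-overlapping peak of the other list, in nt plus 1 on a log axis. Solid lines are peaks without a counterpart and dashed lines are recurring strong peaks, of which 2971 and 2148 are drawn because the others had no such peak on their strand. The lines lie close together in replicate 1 and part at short gaps in replicate 2, where 29% of members and 39.1% of recurring strong peaks lie within 100 nt.

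The side on which that neighbour lay differed between the lists. In replicate 2 the nearest non-overlapping replicate 1 peak was on the 3' side of 66.3% of members (60.3% to 71.8%), against 48.4% of recurring strong peaks (46.3% to 50.5%). With each interval counted 1 time the values were 62.8% (56.4% to 68.9%) and 47.9% (45.7% to 50%). In replicate 1 they were 50.1% (45.5% to 54.8%) and 46.0% (44.2% to 47.8%). The difference between the lists was not tested.

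Neighbours in the peaks' own list were not used by the rule. Another peak of the same list, not overlapping, lay within 50 nt of 21.9% of members and 27.4% of recurring strong peaks in replicate 1, and of 22.4% and 26.8% in replicate 2. At the members' tallies the recurring values were 25.2% and 24.6%, inside the members' intervals of 18.3% to 26.0% and 17.7% to 27.9%. Within 500 nt the values were 73.8% of members (69.5% to 77.7%) and 73.9% of recurring strong peaks in replicate 1, or 71.1% at the members' tallies. In replicate 2 they were 80.4% (75.1% to 84.8%) and 74.0%, or 70.5% at the members' tallies, below the members' interval. With each interval counted 1 time, replicate 2 had 77.9% (72% to 82.8%) and, at the members' tallies, 70.1%.

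The members were spread over many genes. They fell under 355 gene IDs in replicate 1 and 198 in replicate 2, with 47 IDs in both and 506 in all. The 2972 recurring strong peaks of replicate 1 fell under 1664 gene IDs, and the 2150 of replicate 2 under 1271. For the shared IDs and for the members per ID no comparison value is given, so these counts are a description only. Most IDs with members, 292 and 163, held 1 member. There were 46 and 24 IDs with 2 members, and 17 and 11 with 3 or more. Most of these genes were not lost from the other list. A recurring peak of any tally stood under the same gene ID for 382 of the 439 members in replicate 1 (87.0%, 83.5% to 89.8%) and 231 of the 255 in replicate 2 (90.6%, 86.4% to 93.6%). Of the recurring strong peaks, 86.2% and 85.9% had another recurring peak under their ID.

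The gene ID of the member had no peak at all in the other list for 26 members (5.92%, 4.07% to 8.54%) in replicate 1 and 10 (3.92%, 2.14% to 7.07%) in replicate 2. Beside this, the share of recurring strong peaks whose gene ID had no peak in the other list other than the counterpart was 6.29% (5.47% to 7.22%) and 7.95% (6.88% to 9.17%). The members' value lies near that of recurring strong peaks in replicate 1 and below it in replicate 2.

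Counted per member, the median number of peaks under its gene ID was 8 in the members' own list and 7 in the other for replicate 1, and 9 and 8 for replicate 2, against 7 in each list for recurring strong peaks. Without the member itself, the summed tally of its gene ID in its own list had a median of 57 (27 to 105) in replicate 1 and 77 (37 to 145) in replicate 2, against 49 (21 to 89) and 48 (18 to 90) for recurring strong peaks. Among gene IDs with 2 or more peaks in the own list, the remaining summed tally was lower in the other list for 72.0% of members (67.5% to 76.1%) and 67.7% of recurring strong peaks (65.9% to 69.4%) in replicate 1. In replicate 2 these values were 48.4% (42.2% to 54.6%) and 39.5% (37.3% to 41.6%). The replicate 1 list as a whole has a larger summed tally, 155598 against 133644, and this difference bears on both values of a list.

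A few genes held several members. In replicate 2 the gene ID ENSG00000005381.6, whose peaks run over positions 56347416 to 56358084 of chromosome 17 (minus strand), had 6 members, the highest count together with the gene ID ENSG00000169710.6. All 14 of its replicate 2 peaks and all 9 of its replicate 1 peaks were strong, with summed tallies of 408 and 229, members included. Between the replicate 1 peaks ending at 56349207 and starting at 56356441 there is a stretch of 7.23 kb in which replicate 1 lists no peak. Replicate 2 has 4 peaks there, with tallies of 24, 15, 27 and 23. On both sides of the stretch the lists hold overlapping peaks. The peak nearest the 5' end had tallies of 26 in replicate 2 and 18 in replicate 1, and the peak nearest the 3' end had 38 and 51. The other 2 members, with tallies of 31 and 14, lay 6 and 71 nt from replicate 1 peaks. Replicate 1 had 1 member of its own in this gene, with a tally of 17, at a gap of 35 nt.

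In replicate 1 the gene ID ENSG00000121774.12, on the plus strand of chromosome 1, had 4 members among 6 peaks. They had tallies of 10, 11, 30 and 11. The first 3 of them lie in a stretch of 0.77 kb between replicate 2 peaks ending at 32508443 and starting at 32509213. These 3 run from 32508459 to 32508667, and neither list has a peak between there and 32509208. The 2 recurring peaks of this gene had tallies of 17 and 35 in replicate 1 and 11 and 27 in replicate 2. The summed tally was 114 in replicate 1 and 57 in replicate 2. The 3 members of the stretch hold 51 of the 114, the other member holds 11, and the 2 recurring peaks hold the rest.

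**Figure D3:**
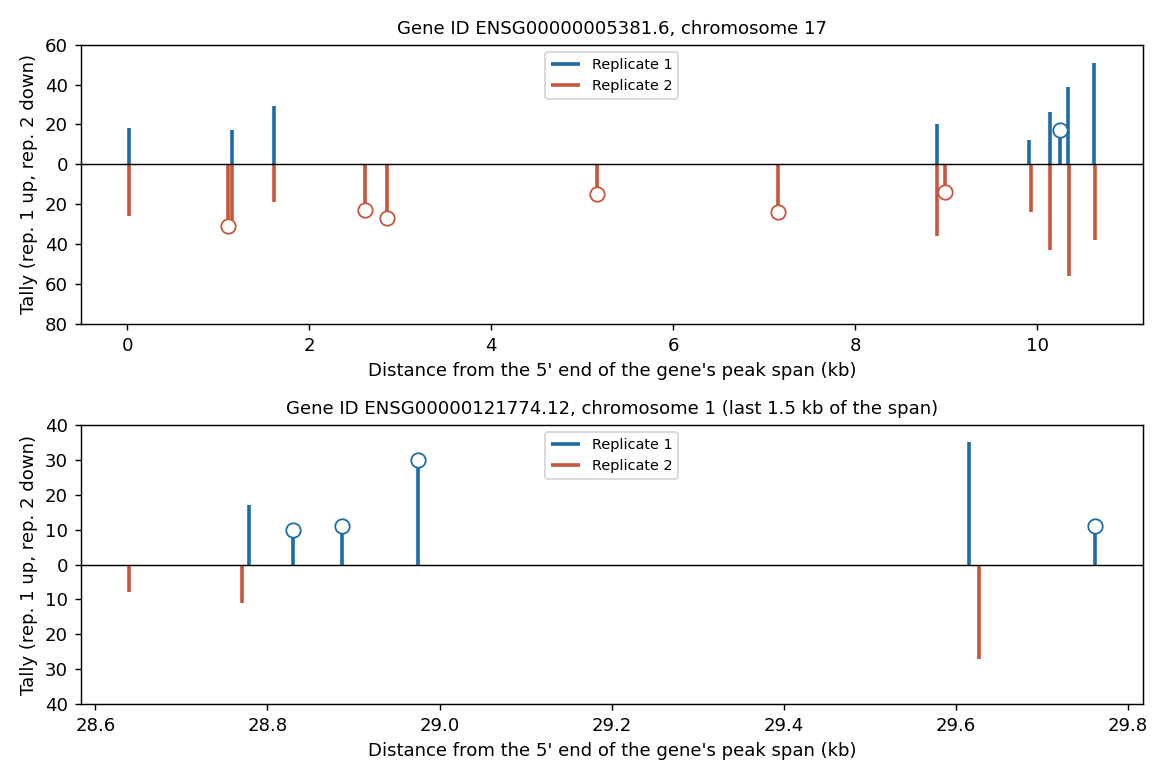
Tally of each peak (vertical axis, replicate 1 upward in blue, replicate 2 downward in red) by its distance from the 5' end of the gene's peak span (kb) for 2 gene IDs; open circles mark members. In the upper panel the 4 replicate 2 members with tallies of 24, 15, 27 and 23 stand where replicate 1 has no peak. In the lower panel 3 replicate 1 members with tallies of 10, 11 and 30 stand where replicate 2 has no peak.

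Other genes with several members differed in how these were spread. In replicate 1 the gene ID ENSG00000072274.8, on the minus strand of chromosome 3, had members with tallies of 12, 21, 14 and 25. The last 3 lay in a stretch of 1.45 kb without a replicate 2 peak, while 9 of its 14 replicate 1 peaks recurred, the strongest with tallies of 54 and 31. In replicate 2 the gene ID ENSG00000169710.6, at 80036280 to 80054323 of chromosome 17, had 6 members with tallies of 10 to 13, spread over 5 separate stretches. Its summed tally was 364 over 42 peaks in replicate 2 and 162 over 31 peaks in replicate 1, a ratio of 2.25, and 18 of its replicate 2 peaks recurred. The gene ID with peaks at chr12:124809084-125023983 (minus strand) had the largest ratio of summed tallies, 4.58, of the 16 gene IDs with most members, 8 from each list. Replicate 2 listed 35 peaks there, 5 of them members, with a summed tally of 238, and replicate 1 listed 14 peaks with a summed tally of 52 and none above a tally of 6. Of these 16 gene IDs, the gene ID with peaks at chr12:4383189-4414513 (plus strand) was the only one with a lower summed tally in the members' own list, 206 in replicate 1 and 208 in replicate 2. It had 3 members in replicate 1 and 2 in replicate 2. These 16 gene IDs were chosen for holding many members, and their sums include the members' own tallies. The choice itself thus favours a larger sum in the members' own list.

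At the smallest gaps, members of replicate 1 touched replicate 2 peaks end to end at 4 places. The minus-strand peak at chr22:42070811-42070854 had a tally of 19 and adjoined a replicate 2 peak of tally 27 at chr22:42070855-42070965, which had another counterpart. The peaks at chr16:2813316-2813353 (tally 14), chr7:135611527-135611575 (tally 11) and chr1:25687945-25687990 (tally 10) adjoined replicate 2 peaks with tallies of 8, 4 and 6 that no replicate 1 peak overlapped. In replicate 2 the peak at chr5:43292613-43292688, with a tally of 15, adjoined a replicate 1 peak with a tally of 5. The peak at chr9:112931118-112931184, listed under 2 gene IDs with a tally of 10, adjoined a replicate 1 peak with a tally of 7.

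Members far from the other list were fewer, in shares near those of recurring strong peaks, and their widths differed between the libraries. Of the 40 replicate 1 members at 10000 nt or more, 24 belonged to gene IDs absent from replicate 2, and 30 had a tally of 10 or 11. The highest tally was 18, and their median width was 79 nt, against 73 nt for the recurring strong peaks at such a distance. The 3 at the largest gaps were chr10:59955483-59955555 (tally 10, 1593.1 kb), chr4:78088188-78088273 (tally 13, 1353.2 kb) and chr13:29012436-29012484 (tally 11, 1071.2 kb). Their gene IDs had 2, 5 and 4 peaks in replicate 1 and none in replicate 2.

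The 17 far members of replicate 2 were narrower, with a median of 46 nt against 62.5 nt for recurring strong peaks at that distance. Their highest tally was 22. The 3 at the largest gaps were chr10:108729811-108729856 (tally 22, 2942.8 kb), chr2:77000088-77000125 (tally 13, 1101.6 kb) and chr3:137237008-137237043 (tally 15, 643.3 kb). Each was the only peak of its gene ID in either list. In all, 6 far members of replicate 2 were such lone peaks, and their widths ran from 28 to 46 nt. Their deposited p-values, the authors' own, ran from 4.61e-05 to 2.16e-03. The 7 far members of replicate 1 that were the only peak of their ID in that list had widths of 45 to 109 nt and deposited p-values of 5.85e-09 to 4.53e-03. The far lone peaks were looked at after their values were seen.

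Shares differed among chromosomes, and on chromosome 5 of replicate 2 most entries came from 1 site. In replicate 2, 36 of the 194 strong entries of chromosome 5 had no counterpart (18.6%, 13.7% to 24.6%). Of these, 21 were the same site at chr5:140890560-140890626, plus strand, listed as 2 overlapping intervals under 21 gene IDs, each with a tally of 10. All 21 IDs had peaks in replicate 1, which listed its nearest peak 373 nt away, at 140891000 to 140891033, with a tally of 7, also under 21 IDs. With each interval counted 1 time chromosome 5 had 14 members among 108 strong intervals (13%, 7.88% to 20.6%). In replicate 1 chromosome 5 had 21 of 273 (7.69%, 5.09% to 11.5%), below the 12.9% of that list, and 9.84% (6.31% to 15%) by intervals, a range that holds the 13.2% of that list counted the same way.

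In replicate 1 the highest shares were on chromosome 13, with 19 of 75 (25.3%, 16.9% to 36.2%) over 16 gene IDs, and on the mitochondrial chromosome, with 16 of 66 (24.2%, 15.5% to 35.8%) over 9 gene IDs. These were the 2 of 24 chromosomes whose interval lay above the share of the whole list, and chromosome 5 was the 1 below it when every entry was counted. In replicate 2 chromosome 13 had 5 of 52 (9.62%, 4.18% to 20.6%) and the mitochondrial chromosome 5 of 45 (11.1%, 4.84% to 23.5%), both near the 10.6% of that list. Chromosome 9 had 11 of 56 there (19.6%, 11.3% to 31.8%) and 9 of 87 (10.3%) in replicate 1. Chromosome 8 had none of 53 strong peaks in replicate 2, which allows a share of up to 5.66% by the limit of 3 counts (the Wilson bound drawn in the plot by chromosome is 6.76%), and 11 of 90 (12.2%) in replicate 1. Chromosome 18 had none of 16 in replicate 2, which allows up to 18.8% by the same limit, with a Wilson bound of 19.4%. Chromosome 1 had 12 of 200 there (6%, 3.47% to 10.2%), also below the share of the list, and 42 of 306 (13.7%) in replicate 1. With each interval counted 1 time, the chromosomes above the share of their list were 13 and the mitochondrial one in replicate 1 and 9 (18.5%, 10.4% to 30.8%) and 17 (21 of 140) in replicate 2, against 9.96% for that list. Chromosome 8 of replicate 2 was then the only one below, and chromosomes 1 and 5 no longer stood outside. By either count no chromosome stood outside the share of its list in the same direction in both libraries. The intervals take no account of peaks that share a gene or of the 24 chromosomes looked at.

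**Figure D4:**
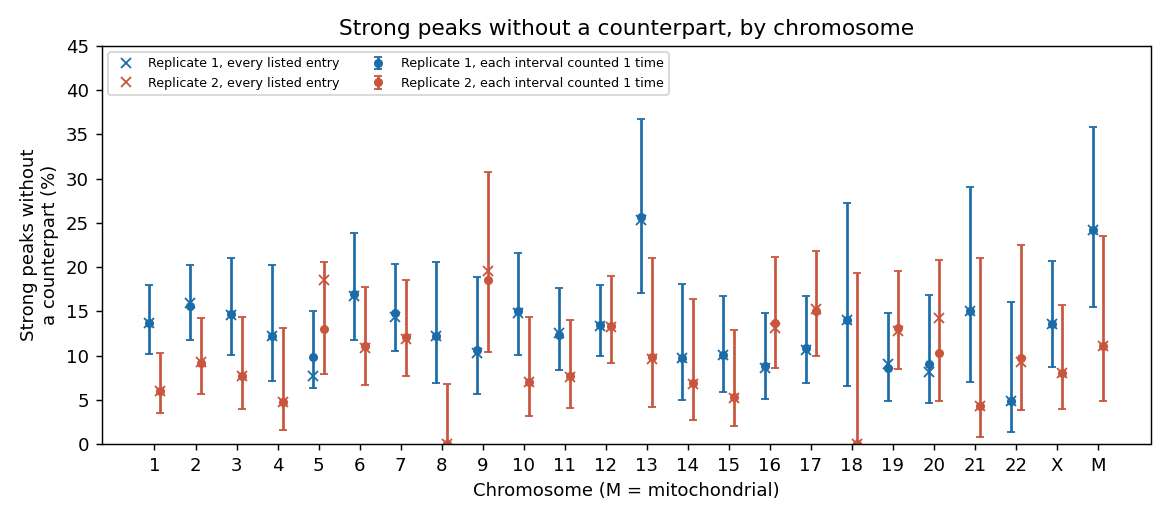
Share of strong peaks without a counterpart (%, vertical axis) on each chromosome, in replicate 1 (blue) and replicate 2 (red). Circles count each interval 1 time and carry 95% Wilson intervals, and crosses count every listed entry. The cross and the circle part on chromosome 5 of replicate 2, at 18.6% and 13%.

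Mitochondrial members were narrow. Mitochondrial RNA is made as long transcripts from a small genome and is abundant in most cells. Of its peaks, 94.3% in replicate 1 and 72.6% in replicate 2 were strong, against 13.2% and 9.53% of all peaks. The members there had a median width of 27 nt (6 to 65) in replicate 1 and 28 nt (17 to 48) in replicate 2, against 39.5 and 40 nt for the recurring strong peaks of the same chromosome. Their gaps to the other list ran from 4 to 514 nt and from 65 to 547 nt, so each had a peak of the other library within 547 nt. This small chromosome holds 70 listed peaks in replicate 1 and 62 in replicate 2, which by itself makes short gaps likely. No gaps of its recurring peaks are given for comparison. The median tally of the mitochondrial members was 13 in each list, and that of the recurring mitochondrial peaks was 23.5 and 22.

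Width is part of what makes an overlap likely, so it is given as a description. Members had a median width of 63 nt (48 to 80) in replicate 1 and 58 nt (45 to 73) in replicate 2, and recurring strong peaks 70 nt (57 to 86) and 67 nt (55 to 85). At the members' tallies the recurring medians were 65 and 64 nt. A width under 30 nt was found in 7.29% of members and 2.86% of recurring strong peaks in replicate 1, and in 6.27% and 2.51% in replicate 2. The short inner interval of each peak lay at its middle in both kinds, with a median relative place of 0.52 for members and 0.53 for recurring strong peaks in replicate 1 and 0.50 and 0.53 in replicate 2. At equal tally the deposited p-values had higher medians for members, by more in replicate 2. At a tally of 10, counting each interval 1 time, the median deposited p was 5.29e-06 over 116 members and 4.19e-06 over 428 recurring peaks in replicate 1. It was 1.64e-05 over 75 members and 3.28e-06 over 357 recurring peaks in replicate 2. At a tally of 12 the medians were 6.65e-07 and 3.11e-07 in replicate 1 and 8.46e-07 and 2.59e-07 in replicate 2.

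Along genes, the members lay mostly at the 3' end, as did recurring strong peaks. Position ran from 0 at the 5'-most peak of a gene ID to 1 at the 3'-most, over both lists, in gene IDs whose peaks span 10 kb or more and without the peaks that set the span. That left 223 members in replicate 1 and 137 in replicate 2. The median position was 0.94 (0.69 to 0.98) in replicate 1 and 0.93 (0.64 to 0.98) in replicate 2, against 0.95 for recurring strong peaks in each. The 3'-most 10% of the span held 58.3% of members (51.7% to 64.6%) and 62.9% of recurring strong peaks (60.4% to 65.3%) in replicate 1. In replicate 2 it held 54.7% (46.4% to 62.8%) and 62.3% (59.3% to 65.2%). At the members' tallies the recurring values were 61.0% and 60.0%, inside the members' intervals. The 5'-most 10% held 10 members in replicate 1 (4.48%) and 4 in replicate 2 (2.92%), against 4.85% and 4.68% of recurring strong peaks. Members that set the span were left out while the inner peak of a recurring pair at an end was kept, which by construction can add recurring peaks near the ends.

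**Figure D5:**
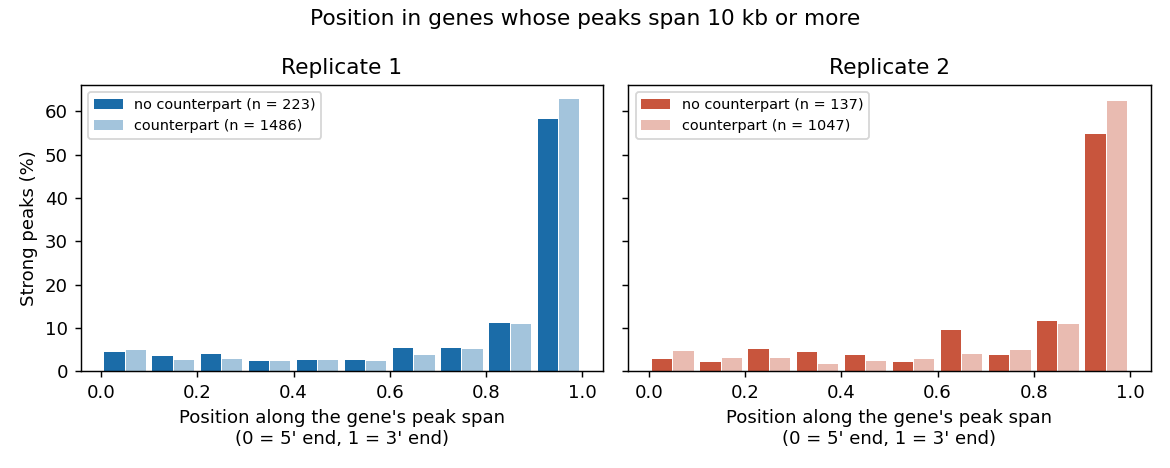
Share of strong peaks (%, vertical axis) in each 10% of the gene's peak span (horizontal axis, 0 at the 5' end and 1 at the 3' end), for members (dark bars) and recurring strong peaks (light bars) of each list. The last 10% holds 58.3% and 54.7% of members and 62.9% and 62.3% of recurring strong peaks.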

How the data were processed

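The authors deposited 1 peak list per CLIP-seq library, with no header. The submitters' processing notes name the build hg19 and the tools STAR 2.3.0e, Bowtie 1.0.0 and cutadapt. How peaks were called is not given in the sources used, nor is the read number of either library. Each line of the deposited lists holds an interval, a strand, the authors' p-value (whether corrected is not stated) and a name made of a gene ID, a running number and the tally. In this work an overlap means at least 1 shared nt, strand included, and a gap is the number of nt between 2 peaks. Recurring strong peaks were also weighted to the members' tally distribution, tallies of 20 or more forming 1 class. Coordinates are printed 1-based. The members and lists of this report were chosen with earlier results of these data known.

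Named items follow a rule: per list, the 10 members with the highest tally, the gene IDs with most members (at most 8, described in part), the 3 members at the largest and smallest gaps (ties included), and the strongest recurring peak of a chromosome for comparison. No table used here pairs Ensembl IDs with symbols, so lists of genes by symbol and the cell type markers were not applied, and no genome of this build was used, so no sequence is printed. The distance and weighting functions were tested on simulated data. Python 3.11.15, NumPy 2.4.6, pandas 2.3.3 and matplotlib 3.10.9 were used.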

Additional observations from a re-analysis of the deposited data

How the results depend on the processing

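Of 79 recomputed values, 38 stayed within the margin set for them and 41 moved; none is a test. Over both lists the main values were 694 members, 11.9% of strong peaks, 5.19% with a gene ID absent from the other list, a median width of 61 nt, 56.9% in the 3'-most 10%, 8.21% on chromosome 5, 3.03% mitochondrial and 34.3% within 100 nt. A minimum tally of 8 gave 1649 members, 18.5% of strong peaks and 1.52% mitochondrial. A minimum of 15 gave 106, 4.60%, 66 nt, 69.5% in the 3'-most part, 4.72% mitochondrial and 50.9% within 100 nt. A minimum of 20 gave 38, 3.18%, 65 nt, 68.4%, 10.5% on chromosome 5, 13.2% mitochondrial and 44.7% within 100 nt. Extending the other list by 50 nt lowered the share to 9.53%. Extending it by 500 nt left 192 members, 3.30%, with 17.7% of gene IDs absent, 68 nt, 32.0% in the 3'-most part, 3.65% on chromosome 5 and 1.04% mitochondrial. An overlap of 50% of the shorter peak gave 13.2%, and the strongest 10% by p gave 10.4%. Merging peaks within 50 nt gave 14%, 9.34% absent IDs, 70 nt, 48.4% in the 3'-most part and 5.34% on chromosome 5. That merging also counted each interval 1 time and kept only 1 gene ID per merged peak. Both steps enter its values for absent IDs and chromosome 5. Counting each interval 1 time gave 4.88% on chromosome 5, and a minimum span of 50 kb gave 70.8% in the 3'-most part. Taking 1 list alone (without replicate 1 or without replicate 2) gave 255 to 439 members, 10.6% to 12.9%, 3.92% to 5.92% absent IDs, 58 to 63 nt, 54.7% to 58.3%, 4.78% to 14.1% on chromosome 5, 1.96% to 3.64% mitochondrial and 29% to 37.4% within 100 nt. The cause of these shifts was not tested. No paired analysis was possible because both replicates belong to 1 group. The read depth of each library is unknown, which limits what absence from a list shows.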
